A study of Bos taurus with 43 samples.

Results

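FRZB, PAK6 and CBLN4 were each measured by 1 probe of a bovine array that carried 21475 gene probes. These 3 probes were selected on their measured log2 signals, which formed 2 separate levels over the 43 arrays, a high level in the animals of PCA groups 1 and 2 and a low level in those of PCA groups 3 and 4. The PCA groups are the 4 groups that the study outlined by eye on a principal component plot of the same arrays, so the separation itself was the ground of the choice and was not tested here. All 3 probes passed the filter on dim probes, as did 16354 probes in all, and the ranges of 96 probes (0.587% of those tested) stood wholly apart in these animals, 50 of them (0.306%) lower in PCA groups 3 and 4.

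FRZB (secreted frizzled-related protein 3) is a secreted protein that binds Wnt ligands and keeps them from their frizzled receptors, and it is best known from cartilage and from developing limb and muscle. PAK6 is a p21-activated kinase, one of the serine/threonine kinases that bind the active form of the small GTPases CDC42 and RAC, and it is known as a partner of the androgen receptor. CBLN4 is a cerebellin, a secreted protein of the C1q family that bridges presynaptic neurexins and postsynaptic receptors in the nervous system.

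The samples were biceps brachii muscle from 43 male cattle, each of which had an array of its own labelled with Cy3 alone. The 25 commercial beef cattle were sampled at slaughter, picked at random in several batches of animals. They were mostly Charolais, Limousine or crosses of French breeds. The labels call 4 of them (S21, S54, S56 and S57) suspected of corticosteroid treatment, and the study classed these as positive from thymus histology and from dexamethasone residues in urine. The treatment of the other 21 was unknown. The batch that an animal came from is not given, so no comparison below takes it into account. The untreated controls came from earlier controlled experiments and comprised 5 Charolais by Limousine bulls of a common age (cross-breed controls, K) and 13 Holstein beef bulls of a range of ages (Holstein controls, C). No dose or time of treatment is known for any commercial animal, so the positive animals stand for residues found at slaughter and not for a treatment given under control. PCA group 1 held the 13 Holstein controls, and PCA group 2 held the 5 cross-breed controls and the unknown animals 263, 265, 266, 269 and 270. PCA group 3 held the 4 positive and 9 unknown animals, and PCA group 4 held 7 unknown animals. Each sample was 1 animal, so the spread given below is the spread between animals plus that of the array.

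The samples were skeletal muscle by their markers, which do not show which muscle was taken. All 13 skeletal muscle marker genes on the array, among them the brightest, MB (myoglobin), were well above background on all 43 arrays, which is the scanner software's flag for a spot brighter than its local background noise. The share of gene spots with that flag ran from 62.3% to 79.2% in PCA groups 1 and 2 and from 40.2% to 97.3% in PCA groups 3 and 4. The array of unknown animal 79 stood apart from the others by its flags. It had the lowest share, 40.2%, where the next lowest array of its set had 63.6%, and 541 of its gene spots were marked as outliers against at most 167 on any other array. Its dim spots carried raised signals without the flag, so values that rest on it are also given without it. Fewer cells that express a gene and less RNA of that gene per cell cannot be told apart in these bulk samples.

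FRZB was high in every animal of PCA groups 1 and 2. The Holstein controls had log2 signals of 8.97 to 11.29 with a median of 10.18. The cross-breed controls had 12.67 (K7), 10.07 (K8), 10.91 (K10), 10.30 (K11) and 11.98 (K12). The 5 unknown animals of PCA group 2 had 10.51 (263), 10.52 (265), 11.51 (266), 10.61 (269) and 10.69 (270). These 5 lay inside the range of the cross-breed controls, although none of them came from the control experiments. In the 7 animals of PCA group 4 the FRZB signal was 2.53 (76) to 8.20 (49), with a median of 5.92. In the 9 unknown animals of PCA group 3 it was 2.62 (61) to 6.18 (81), with a median of 4.08. The positive animals had 5.37 (S21), 3.95 (S54), 3.57 (S56) and 2.84 (S57). The positive animals lay within the range of the unknown animals of their own PCA group, and the highest low animal, 49, was 0.77 below the lowest high animal, the Holstein control C48, a gap that closed with no normalization.

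FRZB was still measurable in many of the low animals. Both of its spots were well above background on all 23 arrays of PCA groups 1 and 2 and on 11 of the 20 arrays of PCA groups 3 and 4, and 26 of 40 spots carried the flag there. In PCA group 4 it was flagged at both spots in 6 of 7 animals, with only animal 76 below background, whereas in the positive animals S21 alone had both spots flagged. The mean log2 signal was 10.49 ± 0.89 (SD, n = 23) in the high set and 4.78 ± 1.53 (SD, n = 20) in the low set, which is a difference of -5.71.

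PAK6 had a narrow high level. The Holstein controls had log2 signals of 7.37 to 8.59 with a median of 7.81. The cross-breed controls had 8.03 (K7), 7.45 (K8), 7.37 (K10), 7.27 (K11) and 8.33 (K12). The unknown animals of PCA group 2 had 8.04 (263), 8.12 (265), 7.63 (266), 8.10 (269) and 8.84 (270). Animal 270 was the highest of all 43, and the SD over the 23 high arrays was 0.45. In PCA group 4 the PAK6 signal was 2.58 (38) to 4.05 (76), with a median of 2.88. In the unknown animals of PCA group 3 it was 1.70 (60) to 6.0 (79), with a median of 2.86. The positive animals had 2.86 (S21), 2.25 (S54), 2.55 (S56) and 3.18 (S57), close to the medians of both groups of low unknown animals. The gap to the lowest high animal, K11, was 1.28 because of animal 79, and it was 3.22 without that array.

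Both PAK6 spots were well above background on all 23 high arrays but on 2 of the 20 low ones, those of unknown animals 50 and 51, and 5 of 40 low spots carried the flag. None of the 8 PAK6 spots of the positive animals did. Animal 50 had the array of the highest share of flagged spots, 97.3%. The mean was 7.93 ± 0.45 (SD, n = 23) against 3.03 ± 0.94 (SD, n = 20), and the latter was 2.87 ± 0.65 (SD, n = 19) without animal 79.

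CBLN4 was below the flag at both spots in nearly every low animal. The Holstein controls had log2 signals of 5.18 to 7.16 with a median of 6.83. The cross-breed controls had 6.17 (K7), 5.98 (K8), 7.78 (K10), 6.95 (K11) and 5.82 (K12). The unknown animals of PCA group 2 had 6.80 (263), 6.66 (265), 5.93 (266), 7.23 (269) and 8.25 (270). Here again animal 270 was the highest of the 43, and the lowest high animal was the Holstein control C22. In PCA group 4 the CBLN4 signal was 1.65 (58) to 3.65 (76), with a median of 2.32. In the unknown animals of PCA group 3 it was 0.77 (50) to 4.42 (79), with a median of 1.76. The positive animals had 1.72 (S21), 1.49 (S54), 1.11 (S56) and 0.41 (S57), none of them flagged. The gap was 0.77, and 1.54 without animal 79, and it turned into an overlap with 75th percentile scaling, with normexp background correction and with no normalization. Without animal 79 the sets were apart by 1.36 with 75th percentile scaling and by 1.25 with no normalization, and with normexp they still overlapped (-0.039).

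Both CBLN4 spots were well above background on all 23 high arrays and on 0 of the 20 low ones, where 1 spot of 40, on the array of animal 37, carried the flag. The order of the low values below that flag therefore carries no ranking of the animals. The mean was 6.66 ± 0.67 (SD, n = 23) against 2.0 ± 1.01 (SD, n = 20), and the latter was 1.88 ± 0.86 (SD, n = 19) without animal 79.

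**Figure D1:**
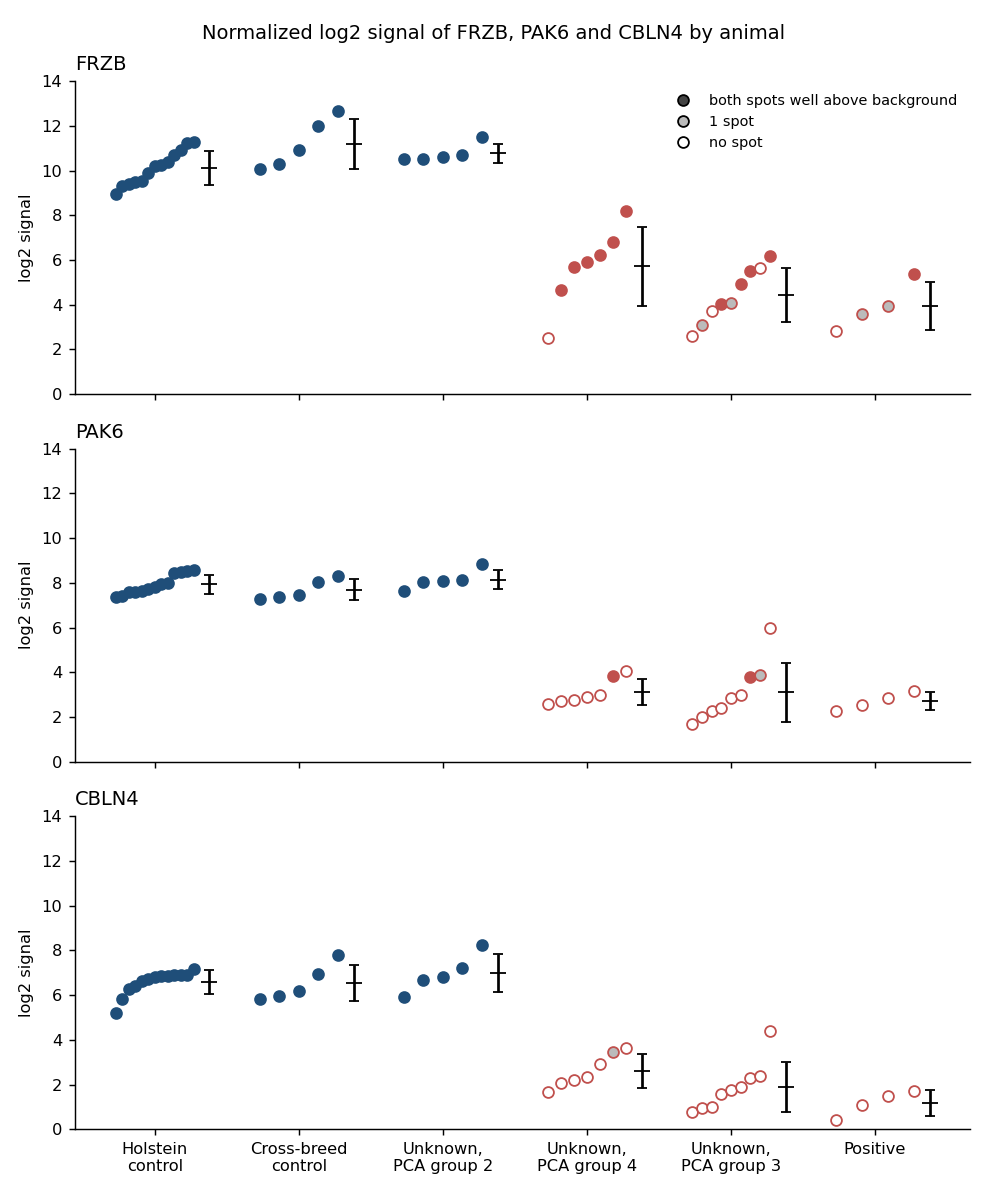
Normalized log2 signal of FRZB, PAK6 and CBLN4 in each of the 43 animals, with blue for PCA groups 1 and 2, red for PCA groups 3 and 4, and fill for the number of the gene's 2 spots that were well above background. Black bars are the mean ± SD of each group, and all 23 blue points lie above all 20 red points in each panel, where 11 red points for FRZB, 2 for PAK6 and 0 for CBLN4 are fully filled.

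Since most low values of PAK6 and CBLN4 are only upper limits, folds were also taken with each low array raised, where its value was lower, to the lowest signal among its probes well above background. That floor ran from 0.343 (animal 50) to 4.853 over the low arrays and is not a detection limit. Signals without the flag that lay above it were kept as measured. A fold given as "at least", here and below, is a fold with such a floor and not a strict lower bound. On that footing the mean high level was at least 45.9-fold above the low level for FRZB, at least 16.4-fold for PAK6 and at least 8.36-fold for CBLN4. Without animal 79 these folds were 47.05, 17.8 and 8.75. The measured means gave 52.4-fold, 29.8-fold and 25.1-fold. The folds with the floor hold for this processing only. Normexp with its offset gave 8.77-fold, 2.72-fold and 1.92-fold from the measured means, all below them. Loess over all pairs of arrays gave 41.5-fold for FRZB, also below, 59.9-fold for PAK6 and 41.2-fold for CBLN4. The cross-breed controls stood at least 18.3-fold above the positive animals for PAK6 and at least 10.2-fold for CBLN4. For FRZB the measured means differed 153-fold. With 1 of the 4 positive arrays measured at both FRZB spots, that size is set mostly against dim signals. In that contrast of labelled groups the ranges of all 3 genes were apart, and so were those of 3530 probes lower in the positive animals (21.6% of those tested), so this separation taken alone is common on the array. It lies across the sets that chose the genes and was not tested.

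Both levels occurred within a slide and within a scan day. All but 1 of the 19 slides held animals of a single set. The exception carried unknown animals 36 and 58 of PCA group 4 and 269 of PCA group 2, and there FRZB read 6.22 and 4.68 against 10.61. PAK6 read 2.88 and 2.72 against 8.10 on that slide, and CBLN4 2.22 and 1.65 against 7.23. Of the 13 scan days, the only one with both sets held these animals with 263, 265, 266 and 270, and its 5 high animals read 10.51 to 11.51 for FRZB against 4.68 and 6.22.

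Among the 96 probes whose ranges did not overlap, PAK6 ranked 11 by the size of the gap, CBLN4 21 and FRZB 22. Without animal 79 they ranked 5, 7 and 23 of 98. The widest gaps belonged to the homeobox genes HOXA9 and HOXA10, which set position along the limb and body axis, and the next to MEIS2, a homeobox partner of HOX proteins that was higher in PCA groups 3 and 4. The genes just inside the limit were GALNT17, an enzyme of the family that starts mucin-type O-glycosylation (7.48 to 9.28 against 5.77 to 7.48, a gap of 0.00057), and USP28, a deubiquitinase (12.91 to 14.27 against 11.99 to 12.90). Just outside it were RTN2, a reticulon of the endoplasmic reticulum (15.18 to 15.93 against 14.65 to 15.18), and AK1, the muscle adenylate kinase (15.51 to 17.11 against 14.21 to 15.51).

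**Figure D2:**
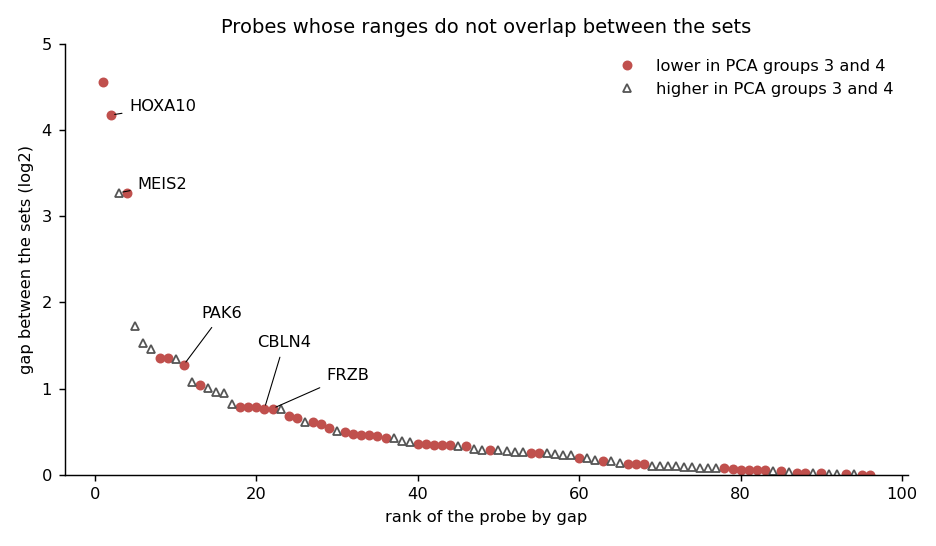
Gap in log2 signal between the sets for the 96 probes whose ranges did not overlap, ordered by size, with filled circles for probes lower and open triangles for probes higher in PCA groups 3 and 4. PAK6 ranked 11, CBLN4 21 and FRZB 22, below the unlabelled first point, HOXA9, and below HOXA10 and MEIS2.

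The genes whose signal followed that of the 3 genes most closely over the 43 arrays were largely shared. For FRZB they were PHKA1, a subunit of muscle phosphorylase kinase (Pearson r = 0.93), HOXA9 (0.92), ABAT, the GABA transaminase (0.91), ATP2B2, a plasma membrane calcium pump (0.91), and MLF1 (0.90). For PAK6 they were HOXA9 (0.97), ATP2B2 (0.95), HOXA10 (0.95), PHKA1 (0.92) and AMPD1, the muscle AMP deaminase (0.92). For CBLN4 they were HOXA9 (0.94), ATP2B2 (0.94), AMPD1 (0.91), PHKA1 (0.90) and HOXA10 (0.89). HOXA9, ATP2B2 and PHKA1 thus stood on all 3 lists, and every gene named here was itself without overlap between the sets. These correlations run over 2 separate levels, which the choice of the genes fixed, and describe the same split of the animals. ATP2B2 and HOXA9 each had more than 1 probe on these lists.

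Whether the 3 genes varied together within a level depended on the processing. After the mean of each set was removed, FRZB and PAK6 had r = 0.21 and rho = 0.26 over 43 arrays (permutation test, adjusted p = 0.39 and 0.23). FRZB and CBLN4 had r = 0.15 and rho = 0.15 (permutation test, adjusted p = 0.44 and 0.42). For PAK6 and CBLN4 they were r = 0.50 and rho = 0.28 (permutation test, adjusted p = 0.020 and 0.23). That last r rested on animal 79, without which it was 0.30 with an adjusted p of 0.41 by the permutation test. Without the 2 arrays farthest from the median of PAK6, 79 and 76, it was 0.20. All p-values were two-sided and adjusted over 9 relations. With other processing FRZB and PAK6 also passed, with r of 0.42 under quantile normalization, 0.50 with loess over all pairs of arrays, 0.40 with no normalization and 0.74 with normexp background correction, but not under 75th percentile scaling or in the deposited values. PAK6 and CBLN4 passed under all 6 of these settings (r of 0.55 to 0.69), and without animal 79 under all but the deposited values (r = 0.47, permutation test, adjusted p = 0.081), with r of 0.45 to 0.64. With scan-day means also removed, r without animal 79 was 0.28 with 75th percentile scaling and 0.15 with quantile normalization. It was then 0.38 with loess over all pairs, 0.52 with no normalization and 0.69 with normexp. The passing pairs of FRZB and PAK6 also passed without animal 79.

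Inside the high set r was 0.29 for FRZB and PAK6, -0.25 for FRZB and CBLN4 and 0.22 for PAK6 and CBLN4 over 23 arrays, with rho of 0.32, -0.27 and -0.01. No relation in that set passed with the values given, the lowest adjusted p of a permutation test being 0.39 for r and 0.26 for rho. FRZB and PAK6, both fully measured there, did pass with 75th percentile scaling (r = 0.54, permutation test, adjusted p = 0.022), quantile normalization (r = 0.53, permutation test, adjusted p = 0.026), normexp (r = 0.60, permutation test, adjusted p = 0.0033) and no normalization (r = 0.79), and the last setting alone also passed the other pairs. With no normalization and scan-day means removed, r was 0.67 for FRZB and PAK6, -0.022 for FRZB and CBLN4 and 0.46 for PAK6 and CBLN4. In the low set r for these pairs in turn was 0.18, 0.33 and 0.61 over 20 arrays, and 0.12, 0.31 and 0.36 without animal 79. These are given with no test, because both CBLN4 spots were above background on 0 and both PAK6 spots on 2 of these arrays, so the values of these genes there are signals not above background. They varied with the processing, with 0.85, 0.88 and 0.90 under normexp and 0.08, 0.10 and 0.78 under 75th percentile scaling. With the mean of each scan day within a set removed as well, which left 40 arrays, r was 0.35 for FRZB and PAK6, 0.12 for FRZB and CBLN4 and 0.58 for PAK6 and CBLN4, the last of which was 0.18 without animal 79. The values over both sets hold the same 20 arrays, so only the high set compares measured signals of all 3 genes.

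**Figure D3:**
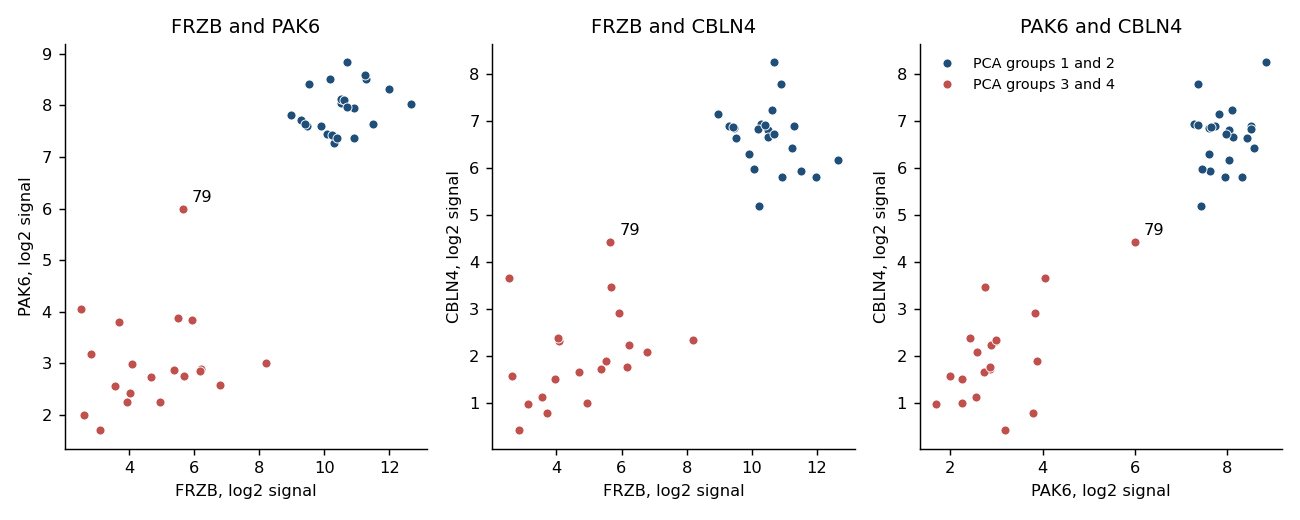
Log2 signal of each pair of the 3 genes in the 43 animals, with blue for PCA groups 1 and 2 and red for PCA groups 3 and 4. The sets form 2 separate clouds in each panel, and animal 79 (labelled) lies at the upper end of the red cloud for PAK6 and CBLN4, where r was 0.61 with it and 0.36 without it.

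Both control groups lay in the high set, so the choice of the genes did not fix the difference between the breeds. Of the 3 genes only FRZB passed the test, and it was lower in the Holstein than in the cross-breed controls. Its mean log2 signal was 10.12 ± 0.77 (SD, n = 13) against 11.19 ± 1.11 (SD, n = 5), a difference of -1.07 (SE 0.43, 95% interval -1.97 to -0.17, limma adjusted p = 0.0472) or 2.10-fold, and the groups overlapped. PAK6 differed by 0.24 (95% interval -0.23 to 0.72, limma adjusted p = 0.39) and CBLN4 by 0.04 (95% interval -0.62 to 0.69, limma adjusted p = 0.93). A call in this contrast was frequent, since 3361 probes (20.6%) passed, 1584 of them (9.69%) lower in the Holstein controls, so 1 call of 3 is near that background.

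The FRZB difference kept its sign under every alternative, but its call did not hold under all. The differences of PAK6 and CBLN4, not called here, changed sign with the normalization, and with none at all, where the median of all probes was -1.04, both were called lower in the Holstein controls (-1.05, limma adjusted p = 0.027, and -1.29, limma adjusted p = 0.0022). The FRZB call was lost without K7, which had the highest FRZB signal of all (-0.70, limma adjusted p = 0.19), without K10 (-1.14, limma adjusted p = 0.063) and without K12 (-0.87, limma adjusted p = 0.14), and also with the slide as a random block (limma adjusted p = 0.069). The control groups shared neither a slide nor a scan day nor a scanner, so scanner and breed cannot be told apart.

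The 4 positive animals shared 2 slides and a scan day with 4 unknown animals (50, 78, 79 and 81), all of them in the low set. FRZB read 3.70, 4.95, 5.66 and 6.18 in these unknown animals, PAK6 3.80, 2.26, 6.0 and 2.86, and CBLN4 0.77, 0.99, 4.42 and 1.76. For each gene the positive animals overlapped them. CBLN4 was flagged at both spots on 0 of these 8 arrays, PAK6 on 1 and FRZB on 3, so that for PAK6 and CBLN4 the comparison sets background against background. With the slide in the fit, the positive minus unknown difference in mean log2 signal was -1.19 for FRZB (95% interval -2.55 to 0.16, limma adjusted p = 0.494) and did not pass. For PAK6 and CBLN4 the fitted differences were -1.02 and -0.80, which test nothing about their level at these signals. No probe of the array passed there (0.0%), while 1873 had an unadjusted p under 0.05, and 9 probes passed without animal 79. Without that animal the differences were -1.16 for FRZB, -0.16 for PAK6 and -0.06 for CBLN4, and without animal 81 that of FRZB was -0.59.

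**Figure D4:**
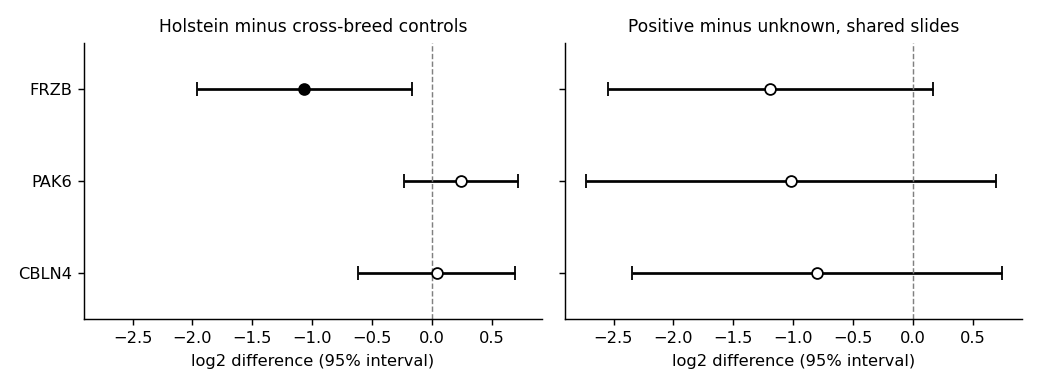
Difference in mean log2 signal with its 95% interval from limma for FRZB, PAK6 and CBLN4, on the left Holstein (n = 13) minus cross-breed controls (n = 5) and on the right positive (n = 4) minus unknown animals (n = 4) of the 2 shared slides. The filled point, FRZB among the controls at -1.07, is the only difference that passed, and the dashed line marks 0. On the right the points of PAK6 and CBLN4 compare signals that were almost all not above background.

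Within the low set the median of FRZB was 5.92 in PCA group 4 and 4.04 in PCA group 3, with overlapping ranges. PAK6 had medians of 2.88 and 2.86 and CBLN4 of 2.32 and 1.57, on arrays where nearly all spots of both genes were below the flag. The 6 low animals of scan days 4 and 5 had 6.25 ± 1.18 (SD, n = 6) for FRZB and the 14 of scan days 6 to 9 had 4.15 ± 1.20 (SD, n = 14). All of the former belonged to PCA group 4, so scan day and PCA group cannot be told apart. Animal 76 of PCA group 4 was scanned later and had a FRZB signal of 2.53, below the flag at both spots. Its array was among those with low spike-in signals.

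The other genes of the pathways and families of FRZB, PAK6 and CBLN4 overlapped between the sets. Of the 86 other genes of these lists that passed the filter, 0 had ranges apart between the sets, where 0.587% of all probes had, so a count of 0 is near that background. The median difference of a list between the sets was -0.10 for 11 Wnt antagonists, 0.30 for 11 Wnt ligands, 0.13 for 20 Wnt receptors and R-spondins, 0.03 for 13 Wnt signal transducers and targets, -0.15 for 4 p21-activated kinases, -0.12 for 21 small GTPases and PAK partners and -0.33 for 6 cerebellins and their receptors. Over all probes tested it was -0.03.

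The secreted frizzled-related relatives of FRZB were all measured in both sets. SFRP4 had a mean of 9.81 ± 1.09 (SD, n = 23) in the high set and 8.25 ± 1.03 (SD, n = 20) in the low set, with overlapping ranges. SFRP1 had 5.41 ± 1.46 (SD, n = 23) against 6.34 ± 0.95 (SD, n = 20), SFRP2 5.98 ± 0.63 against 7.10 ± 0.69 and SFRP5 7.36 ± 0.60 against 7.85 ± 0.65, each overlapping. SFRP4 was lower in the low set, as FRZB was, and the other 3 were higher, under all 7 processing settings compared. None of these 4 was called between labelled groups.

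The ranges of the kinase relatives of PAK6 overlapped between the sets. PAK1 had a mean of 9.21 ± 0.72 (SD, n = 23) in the high set and 8.99 ± 0.63 (SD, n = 20) in the low set. PAK2 had 9.50 ± 0.55 against 9.82 ± 0.57, PAK3 4.98 ± 0.61 against 4.89 ± 0.92, whose direction varied with the scaling, and PAK4 13.73 ± 0.89 against 13.49 ± 1.36. None of these 4 was called between labelled groups, and PAK5 did not pass the filter.

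CBLN4 was the only cerebellin that passed the filter. CBLN1, CBLN2 and CBLN3 failed it and were flagged at both spots on at most 4 arrays of a set. Of their receptors, NRXN3 and DCC failed it as well.

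**Figure D5:**
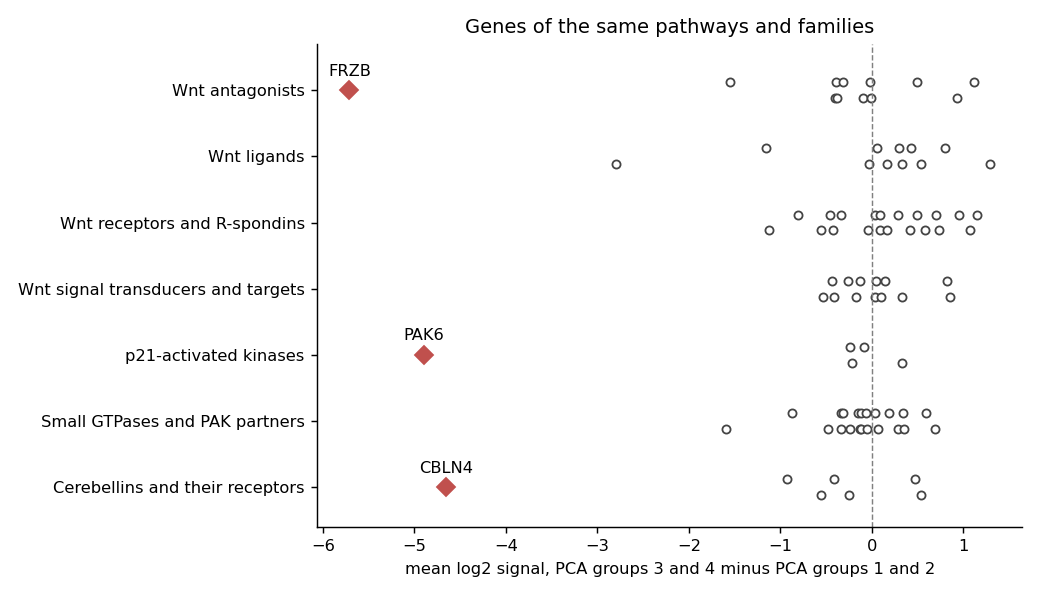
Difference in mean log2 signal between PCA groups 3 and 4 and PCA groups 1 and 2 for each gene of 7 lists that passed the filter, with diamonds for FRZB, PAK6 and CBLN4 and open circles for genes whose ranges overlap between the sets. The 3 genes lie at -5.71, -4.90 and -4.65 and the medians of the other genes of each list lie between -0.33 and 0.30.

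Between positive animals and cross-breed controls 4597 probes were called (28.1%), 2347 higher (14.4%) and 2250 lower (13.8%) in the positive animals. These groups shared neither a slide nor a scan day nor a scanner, so scanner and group cannot be told apart in any call of this comparison. Of the 11 other Wnt antagonists 2 were higher and 1 lower, with a list median of 0.25 against -0.03 over all probes. DKK1, which blocks the Wnt co-receptors LRP5 and LRP6, was called lower, with a fitted difference of -2.67 (SE 0.24, limma adjusted p = 1.57e-05). Both of its spots were above background on 0 of 4 positive and 5 of 5 control arrays, so that size is set against dim signals. KREMEN2, a receptor of DKK proteins, was at least 2.35-fold higher (limma adjusted p = 1.71e-05). These genes moved in opposite directions within the list.

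Of the 11 Wnt ligands 5 were higher and 2 lower, with a list median of 0.86. WNT4 differed by -3.98 (SE 0.25, limma adjusted p = 2.53e-06), with both spots above background on 1 of 4 positive and 5 of 5 control arrays, so the size of that difference is set mostly against dim signals. WNT1 was called lower (limma adjusted p = 0.000198). Both of its spots were above background on 0 of 4 positive and 2 of 5 control arrays, so no fold is given. WNT10B was higher by 1.87 (SE 0.44, limma adjusted p = 0.00536) and WNT6 by 1.74 (SE 0.18, limma adjusted p = 3.63e-05). Between the sets WNT4 had means of 6.13 and 3.34, with overlapping ranges.

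Of the 20 Wnt receptors and R-spondins 4 were higher and 4 lower. RYK, a Wnt receptor of the kinase-like type, was lower by 2.53 on the log2 scale (SE 0.35, limma adjusted p = 0.000222), also mostly against dim signals, since both spots were above background on 1 of 4 positive arrays. FZD2, a frizzled receptor, was lower by 1.94 on the log2 scale (SE 0.14, limma adjusted p = 5.97e-06). LGR6, a receptor of R-spondins, was higher by 1.94 (SE 0.26, limma adjusted p = 0.000191). FZD6 was at least 1.37-fold higher (limma adjusted p = 0.00977), a direction that turned when loess was run over all pairs of arrays. Of the 13 transducers and targets 2 were lower, MYC by 1.83 (SE 0.36, limma adjusted p = 0.00185) and CTNNB1, the beta-catenin gene, by 1.14 (SE 0.18, limma adjusted p = 0.000445).

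Around PAK6, 0 of the 4 other kinases were called, and of the 21 GTPases and partners 1 was higher and 1 lower. LIMK1, a kinase that PAKs phosphorylate, was at least 1.55-fold higher (limma adjusted p = 0.00147), and RHOB was lower by 1.64 on the log2 scale (SE 0.22, limma adjusted p = 0.00018). Of the 6 cerebellins and receptors 1 was higher, the delta glutamate receptor GRID1, at least 2.59-fold (limma adjusted p = 4.11e-05).

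Of the genes named in this comparison WNT4, LGR6, MYC and RHOB kept their call under every alternative tried for single genes. DKK1, WNT1, RYK and CTNNB1 lost it with normexp alone, FZD2 with loess over all pairs of arrays alone, and KREMEN2, WNT10B, WNT6, FZD6, LIMK1 and GRID1 under at least 2 alternatives.

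Between the control groups 10.9% of all probes were called higher and 9.69% lower in the Holstein controls. Wnt antagonists had 2 higher and 1 lower in the Holstein controls, where SOST, the bone Wnt inhibitor sclerostin, was higher by 1.29 (SE 0.25, limma adjusted p = 0.000387), KREMEN2 was at least 1.73-fold higher (limma adjusted p = 0.00107), and CER1 was at least 1.55-fold lower (limma adjusted p = 0.00024). Wnt ligands had 0 higher and 2 lower, receptors 2 and 4, transducers 0 and 2, kinases 0 and 0, GTPases and partners 1 and 1, and cerebellins and receptors 1 and 1. The lower call of the last list, C1QL4, compares background with background. Both of its spots were above background on 0 of 13 Holstein and 0 of 5 cross-breed arrays. RHOU was higher by 1.38 (SE 0.31, limma adjusted p = 0.00163). WNT4 was lower by 1.28 on the log2 scale (SE 0.28, limma adjusted p = 0.0013), RHOB by 1.83 (SE 0.21, limma adjusted p = 2.11e-06) and FZD2 by 1.91 (SE 0.24, limma adjusted p = 5.33e-06). LGR6, MYC and CTNNB1 were also called here, in the same direction as in the positive animals. LGR6 differed by 1.99 (limma adjusted p = 5.79e-08), MYC by -2.09 (limma adjusted p = 0.00055) and CTNNB1 by -1.36 (limma adjusted p = 5.39e-06). RHOB and FZD2 kept their call under every alternative here, while SOST, KREMEN2, CER1, RHOU and WNT4 lost it under at least 1. The positive and Holstein comparisons share the cross-breed controls, and DVL2, DVL3, CDC42, FZD7 and LIMK1 had further probes whose call differed in one of them.

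Genes next to the 3 in the RefSeq order overlapped between the sets. Of 15 flanking genes, 11 were on the array and passed the filter, and 0 of these had ranges apart, which at 0.587% of all probes is near the background. Around FRZB the mean differences between the sets ran from -0.69 (NUP35) to 0.16 (DUSP19). The immediate neighbours NCKAP1 and DNAJC10 had -0.54 and -0.55. For CBLN4, with flanking genes taken on a single side, they ran from -0.66 (PFDN4) to -0.35 (CYP24A1), with DOK5 at -0.58. Among the genes tested around PAK6, SRP14 had -0.27, BMF -0.01 and PLCB2 -0.04.

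Some markers of cell types moved with the levels. Summed over its 8 genes, the log2 signal of the endothelial and blood list was 11.33 to 12.39 in PCA groups 1 and 2 and 12.53 to 13.94 in PCA groups 3 and 4. These ranges met where loess was run over all pairs of arrays or no normalization was done, but not in the values given, and VWF was its brightest gene while ALAS2 was never above background. In positive animals against cross-breed controls 5 of its 7 genes tested were called higher and 0 lower, against 14.4% and 13.8% of all probes. The adipocyte list, led by LPL, had 11.95 to 14.26 against 13.58 to 15.08. Of its 7 genes tested 5 were called higher in the positive animals than in the cross-breed controls and 0 lower (14.4% and 13.8% of all probes), but 6 were also called higher in the Holstein controls (10.9% of all probes), which belong to the high set. FABP4, the adipocyte fatty acid binding protein, was higher by 5.23 in the positive animals (limma adjusted p = 0.000261) and by 5.03 in the Holstein controls (limma adjusted p = 2.44e-05) on the log2 scale, both against the same controls. The nerve and Schwann cell list, led by PMP22, had 12.24 to 13.51 against 12.92 to 14.17. Of its genes S100B alone had ranges apart, as VWF did, and members of the list went both ways. In positive animals against cross-breed controls 1 of the 9 genes tested was called higher, S100B with 2.48, and 2 were called lower, CHRNA1 with -1.24 and NEFH with -1.43, with a list median of -0.75, counts near the 14.4% and 13.8% of all probes. The NEFH call was lost under several alternatives. The summed signals of all 3 of these lists were on average higher in the animals with low FRZB, PAK6 and CBLN4, under all 7 settings.

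Several tendon genes had lower means in the low set, with overlapping ranges. Of the 8 tendon genes tested the median difference between the sets was -1.36, against -0.03 over all probes, and it was negative under all 7 settings. TNMD, the tendon marker tenomodulin, was above background on 22 of 23 high and 6 of 20 low arrays, and COL1A1, a chain of type I collagen, had 12.92 ± 1.05 (SD, n = 23) against 11.36 ± 1.20 (SD, n = 20). In the positive animals 4 of these 8 genes were called lower than in the cross-breed controls and 0 higher, with a median of -1.97, against 13.8% and 14.4% of all probes. They were TNMD, at least 18.4-fold (limma adjusted p = 0.00324), COL12A1 with a difference of -2.50, COL1A1 with -2.35 and COL1A2 with -1.90, and of these TNMD lost its call with normexp background correction. Between the control groups 0 of the 8 were called. SCX, the defining tendon factor, was never above background, and the summed signal of the list, led by THBS4, a gene of the opposite direction (12.36 ± 0.80 against 13.18 ± 0.74), had 12.28 to 16.21 against 12.47 to 16.38. The cartilage list had 7.37 to 9.64 against 7.90 to 10.22, led by CHAD, with COL9A1 never above background and COL2A1 above it on 7 of 43 arrays. Of its 5 genes tested 2 were called higher in the positive animals than in the cross-breed controls, MATN1 and CNMD. The other 3, ACAN and SOX9 among them, were called lower, with a list median of -1.04. Over all probes 14.4% were called higher and 13.8% lower. Satellite cell markers had 12.22 to 13.94 against 11.82 to 13.21 and leukocyte markers 9.16 to 12.51 against 9.57 to 11.94.

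Of the muscle markers those of fast fibres differed most. TNNC2, the fast troponin C, had a mean of 17.87 ± 0.44 (SD, n = 23) in the high set and 14.31 ± 2.22 (SD, n = 20) in the low set, MYH1 16.46 ± 1.09 against 13.17 ± 2.83 and MYLPF 16.99 ± 0.61 against 14.01 ± 1.22, all with overlapping ranges. Outside the marker list, the fast-fibre genes ACTN3, ATP2A1 and MYBPC2 were among the probes whose ranges did not overlap. Their differences between the sets were -3.43, -4.07 and -4.73, with gaps of 0.69, 0.46 and 0.015. The slow myosin MYH7 had 17.31 ± 0.55 against 17.62 ± 0.63, a direction that turned when loess was run over all pairs of arrays. The part of these cell types and fibre types in the levels of FRZB, PAK6 and CBLN4 was not tested.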

How the data were processed

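The deposited scanner files gave, per the file headers, the processed intensity of each spot from Agilent Feature Extraction (versions 9.5.1.1, 9.5.3.1 and 9.1.3.1), which the authors obtained by linking scans at different sensitivity, subtracting background and detrending. Each array held 44407 spots, of which 42990 belonged to gene probes, nearly all printed as 2 spots. The intensity of each spot was set to log2 and normalized by cyclic loess over all 43 arrays, as the study's methods name. Gene and spike-in spots were normalized together. The spots of a probe were then averaged, leaving out spots marked as outliers. Probes with a log2 signal under 4 on at least 30 arrays were removed (5121), which left 16354. The number of arrays limits the precision.

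Groups were compared with limma 3.58.1 in R 4.3.3 (lmFit and eBayes, Benjamini-Hochberg over all 16354 probes, called at an adjusted p under 0.05 and at least 2-fold). Positive and unknown animals were compared with the slide as a term. Correlations had two-sided permutation tests with 100000 permutations within sets. The limma and correlation steps were tested on simulated data. Python 3.11.15 with numpy 2.4.6, pandas 2.3.3 and matplotlib 3.10.9 did the rest.

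PCA group membership was read from the study's plot. The 3 genes and all gene lists were chosen with earlier results of these data known, so no list supports a result independently. Named were the 3 genes, the 5 genes most like each, the 2 on either side of the limit, the SFRP, PAK and CBLN families, and up to 4 genes of a list with the largest called change. Some genes that this rule or the lists hold are not reported here. Fast-fibre genes and the markers of other cells were named after their values were seen. A gene with several probes was represented by the brightest. Symbols came from the files' accessions, gene IDs and descriptions through RefSeq and named 17262 probes. The files name no genome build and hold no probe sequence, so neither coordinates nor sequences are given. The deposited table of processed values, with 14.5% of spots blank, correlated with the scanner log2 signal at a median r of 0.9994 over arrays. Its column medians were 6.42 to 8.21 in log2, so it is linear and not centred, and how it was scaled stays unknown. It served as an alternative, beside other normalizations, background corrections, filters, sample choices and blocks.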

Additional observations from a re-analysis of the deposited data

Results flagged for a closer look

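None of the values of FRZB, PAK6 or CBLN4 in the positive animals, the cross-breed controls, the unknown animals of the shared slides, PCA group 2 or PCA group 4 had an animal set apart from the rest by Dixon's criterion, in which the gap of an extreme animal to its neighbour is divided by the range of the group. In all, 111 sets of values were compared, and 6 of them, all of other named genes of the lists, met the criterion, while chance alone marks about 1 group in 20. In the cross-breed controls K10 was the lowest animal for CER1 with a ratio of 0.731 (log2 signal 4.29 against 4.96 in the next), for RHOU with 0.793 (8.33 against 8.82), for SDC4 with 0.711 (12.61 against 12.67) and for VWF with 0.752 (9.71 against 10.45). In the positive animals S57 was the lowest for C1QL4 with 0.918 (3.81 against 4.10), and S21 was the lowest for TNNT3, the fast troponin T, with 0.916 (10.57 against 12.18).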

How the results depend on the processing

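The lower mean of FRZB, PAK6 and CBLN4 in PCA groups 3 and 4 was kept under all alternatives tried. Normexp background correction, whose offset raises dim signals, brought the difference to -3.13 for FRZB, -1.44 for PAK6 and -0.94 for CBLN4, and loess over all pairs of arrays made that of PAK6 -5.91. The gap turned negative for CBLN4 with 75th percentile scaling (-0.82, but 1.36 without animal 79), normexp (-0.12) and no normalization (-0.34, but 1.25 without animal 79) and for FRZB with no normalization (-0.32). For PAK6 it was 3.27 with loess over all pairs, 0.13 with normexp and 3.22 without animal 79, an alternative chosen after seeing the data, and for CBLN4 it was 2.10 with loess over all pairs. The count of probes without overlap was 22 with no normalization and between 73 and 100 elsewhere.

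The FRZB call among the controls was lost with loess over all pairs (-1.11, limma adjusted p = 0.055), without the filter (-1.07, limma adjusted p = 0.059), with all 43 arrays in a common fit (-1.07, limma adjusted p = 0.46), and with a random block for slide (-1.06) or scan day (-1.05, limma adjusted p = 0.072). Leaving out each cross-breed control gave -1.35 to -0.70. PAK6, not called in the values reported, changed sign with 75th percentile scaling (-0.13), quantile normalization (-0.082), normexp (-0.12) and no normalization (-1.05). CBLN4 did so with these (-0.37, -0.18, -0.18 and -1.29), with loess over all pairs (-0.0060) and with the deposited table (-0.039), and leaving out a control gave -0.14 to 0.35. With no normalization the median of all probes moved by -1.04, so both values lie near that shift, and both were called there. For positive against unknown animals the sign turned with loess over all pairs for FRZB (0.61) and PAK6 (0.12) and with normexp for CBLN4 (0.021), all uncalled.

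The calls between the control groups numbered 8579 with no normalization and 1389 with normexp. Those between positive animals and cross-breed controls numbered 9875 and 1359, and 7589 without the filter. Between positive and unknown animals 0 to 9 were called when an array was left out, the 9 without animal 79. The share of higher calls between the control groups was 52.9%, and 34.9% with 75th percentile scaling and 3.67% with no normalization. Between positive animals and cross-breed controls it was 51.1%, and 69.2%, 39.8%, 33.0% and 11.9% with 75th percentile scaling, quantile normalization, loess over all pairs and no normalization. With set means removed, r of FRZB and PAK6 passed with quantile normalization (0.42), loess over all pairs (0.50), no normalization (0.40) and normexp (0.74), and r of FRZB and CBLN4 with normexp (0.50). That of PAK6 and CBLN4 did not pass without animal 79 (0.30). Of 67 called values of named list genes, 24 kept their call under every alternative and 43 lost it under at least 1, most often with normexp, FZD6 between positive animals and cross-breed controls turned to -0.19 with loess over all pairs, and KDR to -0.18 with no normalization. The causes were not tested. No paired analysis was possible because the animal numbers are names and pair no samples.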
